A study of Homo sapiens with 9 samples.

Results

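HT29 cells incubated with instant caffeinated coffee (ICC) were compared with untreated HT29 cells (Control), using the 3 arrays titled HT29-ICC and the 3 titled HT29-Control, which are 6 of the 9 arrays of the study. The other 3 arrays are of HT29 cells given 1.68 µg/mL of caffeic acid for 24 h, and the statistical model held them too. HT29 is an established human cell line derived from a cancer of the colon. The ICC cells received 7 µg/mL of coffee, a concentration described as not cytotoxic, for 24 h, and the Control cells received no treatment. No genetic change is named for either group, no vehicle is named for the Control cells, and the labels do not say whether the 3 arrays of a group came from separate cultures. The study used the comparison to ask how the amount of coffee in a cup alters transcription in colon cells. Total RNA was labelled with biotin and hybridised to an oligonucleotide array that reads most genes through probe sets, which are groups of short probes usually placed near the 3′ end of a transcript. Values are given on the log2 intensity scale, on which a difference of 1 is a doubling, and a difference is always ICC minus Control.

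Coffee is a mixture of caffeine, chlorogenic acids and other phenolic compounds, diterpenes and products of roasting. Caffeine blocks adenosine receptors and, at high concentration, the phosphodiesterases that degrade cyclic AMP. Coffee phenolics and diterpenes are known as activators of the transcription factor NRF2, which drives antioxidant genes such as NQO1 and HMOX1, and roasting products can bind the aryl hydrocarbon receptor, which drives CYP1A1 and CYP1B1. Members of these pathways were therefore among the 32 gene lists that were described.

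Markers of colon epithelium were mostly bright, with a median Control level of 10.75 over 15 measured and 1 with a mean level under 5. EPCAM, an epithelial adhesion molecule, lay between 12.91 and 13.21 on the 6 arrays. Of 15 measured epithelial markers, 9 lay above 0 and 6 below 0 in ICC minus Control, where 60.2% of all genes lay above 0, with a median difference of +0.016 and 0 members at an unadjusted p under 0.05. The leukocyte antigen gene PTPRC lay between 3.58 and 3.78, below the lower quartile of the genes on each array. It does not stand for its list. Of 11 leukocyte markers, 3 had a mean level under 5, the median Control level was 5.27, and the brightest, the lysozyme gene LYZ, averaged 13.07. Pairs of arrays among the 6 correlated at 0.995 to 0.998 over all genes, each by its brightest probe set. The array medians lay between 44.4 and 46.6 intensity units, highest on ICC replicate 1.

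Instant coffee gave small differences. Over 19775 genes, each represented by its brightest probe set, limma with Benjamini-Hochberg adjustment called 0 genes (0%), and the lowest adjusted p was 0.539. With the replicate number as a block, 0 genes (0%) passed and the lowest adjusted p was 0.239. At an unadjusted p under 0.05, 1153 genes (5.83%) were higher in ICC and 376 (1.9%) were lower. The block moved these counts to 1664 higher (8.41%) and 789 lower (3.99%). The ICC arrays did not overlap the Control arrays in 1672 genes that were higher (8.46%) and 692 that were lower (3.5%). A difference of at least 1.25-fold was reached by 193 genes above and 84 below Control, and one of at least 1.5-fold by 1 gene in each direction, HINT3 and FOLR1, which is named here because of this count. FOLR1, the folate receptor, had an SD of 1.05 in ICC and 0.058 in Control, and its difference of -0.64 was -0.039 without ICC replicate 2.

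The excess of higher genes varied with the array, the scaling and the level. Of the 1529 genes at an unadjusted p under 0.05, 75.4% were higher in ICC. Centring each array on its median made it 58.5% (812 higher, 576 lower), and the block together with centring made it 51.1% (1168 higher, 1117 lower). Without ICC replicate 1, the array with the highest median, 575 genes were higher and 333 lower. The median difference over all genes was +0.028, and it was +0.054 between ICC and Control replicates 1, +0.0065 between replicates 2 and +0.0064 between replicates 3. Genes with a mean level of 4.63 to 6.48, between the lower quartile and the median of all genes, had the largest share at that p in the upward direction, 9.28% against 1.07% downward. In genes above the upper quartile of level the shares were 3.7% upward and 2.25% downward. The plot of difference against level shows this spread, with HINT3 standing alone.

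**Figure D1:**
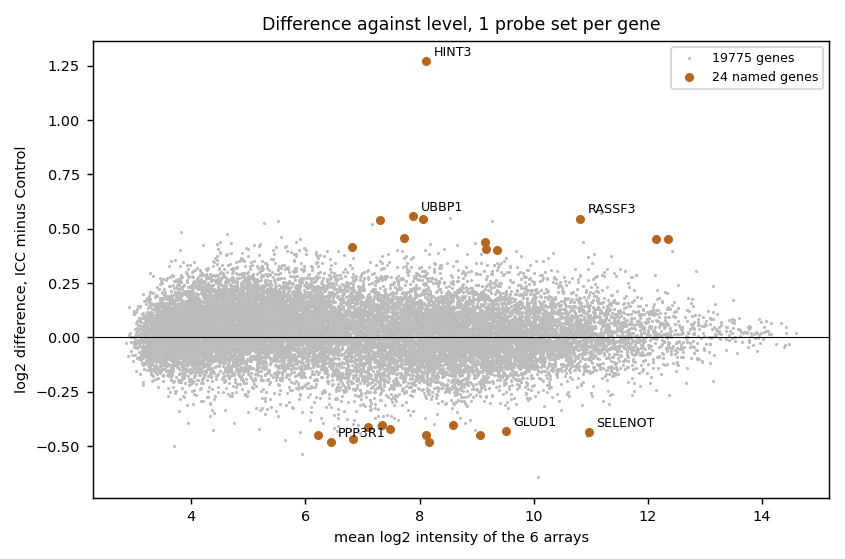
Log2 difference of ICC minus Control (vertical axis) against the mean log2 intensity of the 6 arrays (horizontal axis) for 19775 genes, each a grey point, with the 24 named genes in brown. HINT3, at +1.27, lies above all other genes, and 193 genes above and 84 below 0 reach 1.25-fold.

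Among genes with a mean level of at least 6, an unadjusted p under 0.05 with and without the block, and ICC arrays that did not overlap the Control arrays, 372 were higher and 224 lower. The 12 highest and 12 lowest of these differences are described next. Every one of the 24 had an adjusted p of 0.614 or 0.627 by limma, and of 0.239 to 0.334 with the block, so none passed.

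HINT3, which encodes a histidine triad protein that hydrolyses nucleotide conjugates, had the highest difference. It measured 7.99, 7.82 and 6.65 on Control replicates 1, 2 and 3 and 8.81, 8.80 and 8.66 on the ICC replicates. All ICC arrays exceeded all Control arrays, and Control replicate 3 lay well below the other Control arrays. The difference was +1.27 ± 0.28 (n = 3 arrays in each group), or 2.41-fold, and +0.85 without Control replicate 3. Here and below, ± is the SE from limma. Its spread is estimated over all 9 arrays, caffeic acid included, and drawn toward that of other genes. It is thus not the spread of the 6 arrays alone. HINT3 had an SD of 0.73 in Control and 0.082 in ICC. All 3 of its probe sets were higher in ICC, by +1.27, +0.94 and +0.83. The caffeic acid arrays of the study, which are compared with the same Control arrays, had a mean of 8.87 for this gene.

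Genes of cell adhesion, receptors and signalling were among the higher ones. TLN1, which encodes talin, the link between integrins and the actin cytoskeleton, measured 7.02, 7.10 and 7.01 in Control and 7.68, 7.21 and 7.86 in ICC. Its difference was +0.54 ± 0.17, but omitting _x_at and _s_at probe sets, which can match several transcripts, it was +0.038. RASSF3, a Ras association domain protein, measured 10.49, 10.61 and 10.51 in Control and 11.35, 11.12 and 10.79 in ICC. The groups did not overlap, with a difference of +0.55 ± 0.13, yet the only probe set of the gene outside the _s_at kind gave -0.15. EPOR, the erythropoietin receptor, measured 7.46, 7.65 and 7.41 in Control and 8.08, 7.91 and 7.90 in ICC. The difference was +0.46 ± 0.096 on its brightest probe set, 396_f_at, with 4 of 5 probe sets above 0. All the others were small, from -0.17 to +0.095, with overlapping groups. PTPRO, a receptor tyrosine phosphatase, was higher by 0.45 ± 0.15, a direction that 0 of its 2 other probe sets shared, and the leukocyte receptor gene CD300LB by 0.42 ± 0.13. RPS6KA4, a nuclear kinase downstream of MAP kinases, measured 8.85, 9.05 and 8.95 in Control and 9.35, 9.23 and 9.50 in ICC, a difference of +0.41 ± 0.088, and its 1 other probe set had the opposite sign. TCAF1, a regulator of TRP ion channels, was higher by 0.40 ± 0.14.

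HMGA1, an architectural chromatin protein abundant in tumour cells, measured 11.86, 12.01 and 11.88 in Control and 12.56, 12.09 and 12.47 in ICC. ICC replicate 2 came close to the Control range, and the difference was +0.45 ± 0.13. ICC replicate 2 was also the lowest ICC array for FBRSL1, at +0.44 ± 0.13. ABHD14B, a member of the alpha/beta hydrolase family, measured 7.66, 7.86 and 7.83 in Control and 8.34, 8.06 and 8.59 in ICC, a difference of +0.54 ± 0.13. The ubiquitin B pseudogene UBBP1 was higher by 0.56 ± 0.093, a value that is uncertain because its sequence resembles that of the parent gene.

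The lower genes included proteins of the endoplasmic reticulum, mitochondria and nucleus. SELENOT, a selenoprotein of the endoplasmic reticulum, measured 11.29, 11.08 and 11.20 in Control and 10.70, 10.79 and 10.77 in ICC. The lowest Control array stood above the highest ICC array, and the difference was -0.44 ± 0.074. GLUD1, the mitochondrial glutamate dehydrogenase, measured 9.69, 9.79 and 9.72 in Control and 9.23, 9.35 and 9.32 in ICC. Its difference was -0.43 ± 0.081, and its other probe set gave -0.49. OSTF1, an adaptor protein first described as an osteoclast stimulating factor, measured 8.31, 8.31 and 8.41 in Control and 7.87, 8.004 and 7.81 in ICC, a difference of -0.45 ± 0.074. SNRNP40, a component of the spliceosome, measured 9.23, 9.36 and 9.27 in Control and 8.77, 8.82 and 8.92 in ICC, a difference of -0.45 ± 0.089.

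MTA2, a subunit of the NuRD chromatin remodelling complex, measured 6.54, 6.42 and 6.36 in Control and 6.17, 5.93 and 5.87 in ICC, a difference of -0.45 ± 0.097. PPP3R1, the regulatory subunit of the phosphatase calcineurin, was lower by 0.48 ± 0.13. ANKRD12, a nuclear ankyrin repeat protein, measured 8.37, 8.62 and 8.24 in Control and 7.80, 8.11 and 7.88 in ICC, a difference of -0.48 ± 0.11. WDR76 followed at -0.47 ± 0.10. The membrane proteins SLC60A2, a glucose transporter, and MARCHF3, a ubiquitin ligase, lay at -0.42 ± 0.16 and -0.41 ± 0.092, and the 1 other probe set of MARCHF3 had the opposite sign. CEPT1, which makes phosphatidylcholine and phosphatidylethanolamine, lay at -0.40 ± 0.13.

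THBS1 encodes thrombospondin, a secreted matrix glycoprotein. It measured 7.55, 7.58 and 7.49 in Control and 6.78, 7.27 and 7.36 in ICC, a difference of -0.40 ± 0.14. ICC replicate 1 was the lowest, and without it the difference was -0.23. All 7 probe sets of the gene were below 0, from -0.0069 to -0.40. In the plot of the 24 genes array by array, the ICC points lie outside the Control points in each. The genes were chosen for this, so the plot could not show otherwise.

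**Figure D2:**
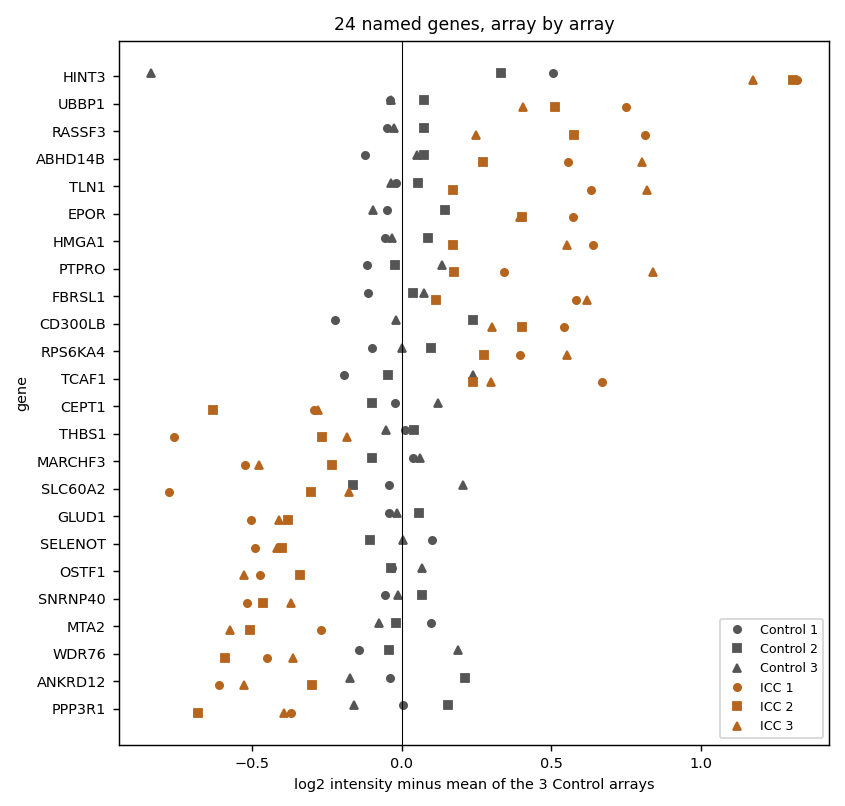
Log2 intensity minus the mean of the 3 Control arrays (horizontal axis) for the 12 highest and 12 lowest named genes (vertical axis), with Control arrays in grey and ICC arrays in brown and 1 symbol per replicate number. HINT3 lies farthest to the right, and its Control replicate 3 lies farthest to the left among the Control points.

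Of the genes with several probe sets, the next brightest probe set gave a difference of the same sign as the brightest in 6355 of 10523 genes (60.4%). Where both probe sets had a mean level of at least 6, it did so in 63.4%. In genes at an unadjusted p under 0.05 in both fits with both probe sets at that level, the share was 158 of 205 for the higher genes (77.1%) and 131 of 171 for the lower ones (76.6%). Among the named genes with several probe sets it was 6 of 10 for the higher and 8 of 9 for the lower.

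The probe sets themselves were then tested, since one that is not the brightest of its gene can read another part of the transcript. Of 54613 probe sets, 0 (0%) passed without the block, where 2617 (4.79%) were higher and 1875 (3.43%) lower at an unadjusted p under 0.05. The shares with the block were 6.72% and 6.13%, and the groups did not overlap in 7.08% of probe sets upward and 4.75% downward. With the block, 2 (0.00366%) passed, and both were lower in ICC. SSR3 encodes a subunit of the translocon-associated protein complex, through which secretory proteins enter the endoplasmic reticulum. The SSR3 probe set 217790_s_at measured 9.08, 9.16 and 9.48 on Control replicates 1 to 3 and 8.42, 8.37 and 8.77 on the ICC replicates. All ICC arrays were below all Control arrays, by -0.72 ± 0.15 without the block, with adjusted p values of 0.0415 with the block and 0.430 without it. Its 4 probe sets were all below 0, and the brightest gave -0.14 ± 0.086. The other, 235008_at, has no gene in the annotation used. It measured 6.23, 6.25 and 7.12 in Control and 5.12, 5.34 and 5.87 in ICC, a difference of -1.09 ± 0.26 with adjusted p values of 0.0116 with the block and 0.441 without it. Leaving out any 1 of the 6 arrays, the adjusted p with the block was 0.13 to 0.326 for the SSR3 probe set, which passed in 0 of these fits, and 0.0312 to 0.21 for the other, which passed in 2.

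Centring each array on its median together with the block, a combination chosen after the data were seen, gave 72 probe sets that passed. Of these, 67 fell in ICC and 5 rose. Centring lowered every difference by the same amount, from +1.27 to +1.24 for HINT3 probe set 228697_at. The 5 were all 3 probe sets of HINT3 and 1 each of UBBP1 and ABCC12, a transporter gene that was dim at means of 3.58 in Control and 4.07 in ICC. Among the 67 were both probe sets of GLUD1 and 52 probe sets that were not the brightest of their gene, from 51 genes. Of all 54613 probe sets tested, 21316 were not the brightest of their gene. The median difference of the 52 was -0.53, and that of the brightest probe sets of the same 51 genes was -0.026, with 31 of 51 below 0. The 52 were picked because they passed as lower, so a gap from the brightest probe sets was built in. Without such a choice, the median gap was -0.017 over the 8873 probe sets of that kind at a mean level of at least 6. With the block and quantile normalisation applied again, also added after the data were seen, 9 probe sets passed, and each of these had also passed with centring. With the block and only the 6 arrays, 4 passed, of which 2 were lower.

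Several of the 51 genes show how far probe sets of a gene parted, and the ones named here were chosen after their values were seen. HNRNPH1, a splicing regulator that binds guanine-rich RNA, measured 8.33, 8.04 and 8.46 in Control and 7.57, 7.15 and 7.58 in ICC on probe set 213470_s_at. That was a difference of -0.84 ± 0.15, while its brightest probe set gave +0.23 ± 0.077 with the ICC arrays above the Control arrays. ATL3, an atlastin that shapes the tubules of the endoplasmic reticulum, measured 6.54, 6.68 and 6.34 in Control and 5.35, 5.47 and 5.68 in ICC on 223453_s_at. This was -1.02 ± 0.16 against -0.061 for its brightest probe set. EIF2S3, a subunit of the factor that brings initiator tRNA to the ribosome, gave -0.77 ± 0.16 on 205321_at and -0.052 on its brightest. PRKAR1A, the regulatory subunit of protein kinase A that binds cyclic AMP, gave -0.62 ± 0.084 on 200604_s_at and +0.20 ± 0.10 on its brightest. TRAM1, a translocating chain membrane protein, gave -0.44 ± 0.10 on 201399_s_at and -0.094 on its brightest.

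**Figure D3:**
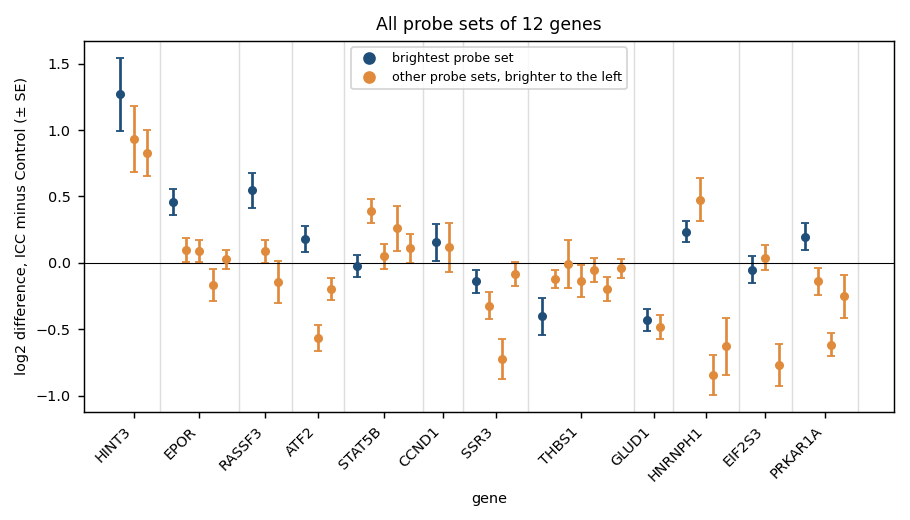
Log2 difference of ICC minus Control with its SE (vertical axis) for every probe set of 12 genes (horizontal axis), the brightest in blue and the others in orange. The 3 probe sets of HINT3 lie above 0 and those of SSR3, THBS1 and GLUD1 below it, while those of HNRNPH1 and ATF2 lie on both sides.

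Over all 21316 probe sets that were not the brightest of their gene, 50.5% lay above 0. The 12443 of them with a mean level under 6 had 4.34% higher and 2.97% lower at an unadjusted p under 0.05. At a mean level of at least 6, 8873 probe sets were not the brightest of their gene, and 3.92% of them were higher and 8.7% lower at an unadjusted p under 0.05. The 10962 brightest probe sets at that level had 4.66% higher and 2.49% lower. The difference was below that of the brightest probe set of the same gene in 55.0% of the 8873, with a median gap of -0.017. The arrays carry control probe sets at the 3′ and 5′ ends of transcripts such as ACTB and GAPDH, and their gap rises as RNA or its labelled copy is shorter. For ACTB the gap was 0.16, 0.28 and 0.32 on Control replicates 1 to 3 and 0.24, 0.40 and 0.35 on the ICC replicates. For GAPDH it was -0.039, -0.010 and 0.018 in Control and 0.023, 0.0096 and 0.093 in ICC. The gap was larger in ICC in 3 of 3 pairs for both of these genes, with overlapping groups in each. Its part in the lower probe sets was not tested.

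**Figure D4:**
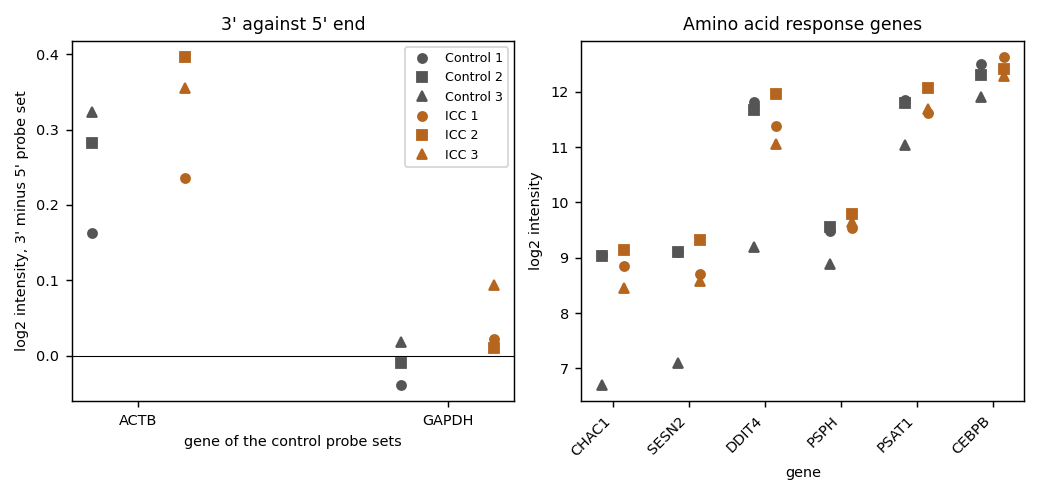
Left, log2 intensity of the 3′ minus the 5′ control probe set (vertical axis) of ACTB and GAPDH on each array, and right, log2 intensity (vertical axis) of 6 amino acid response genes, with Control in grey, ICC in brown and 1 symbol per replicate number. The gap is larger on the ICC array of each number, and Control replicate 3 lies lowest for each of the 6 genes.

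STAT5B, ATF2 and CCND1 are known as genes of interest of this study, and none had an unadjusted p under 0.05 by its brightest probe set. STAT5B, a transcription factor of cytokine signalling, measured 7.23 on all 3 Control arrays and 7.17, 7.17 and 7.28 on the ICC arrays by its brightest probe set, a difference of -0.025 ± 0.081. Of its 5 probe sets, 4 lay above 0, and 1555088_x_at gave +0.39 ± 0.091 with groups that did not overlap. ATF2, a transcription factor of stress kinases, gave +0.18 ± 0.098 on the brightest and -0.57 ± 0.096 on 205446_s_at. The latter is one of the 67 probe sets that fell with the block and centring. Between replicates 1, 2 and 3, the brightest ATF2 probe set differed by +0.50, +0.031 and +0.014. Of the 3 ATF2 probe sets, 2 lay below 0. The dim 1555146_at, at 3.54 in Control, gave -0.19 with groups apart. CCND1, which encodes cyclin D and drives entry into the cell cycle, measured 8.89, 8.82 and 9.08 in Control and 9.24, 8.72 and 9.30 in ICC. The groups overlapped, and the difference was +0.15 ± 0.14, with 2 of 2 probe sets above 0. Of the 17 STAT and ATF/CREB factors, 2 were higher (11.8%) and 0 lower at an unadjusted p under 0.05, against 5.83% and 1.9% of all genes. The 2 were STAT6 at +0.20 ± 0.078, with groups apart, and STAT4 at +0.25 ± 0.10, a dim gene at about 5.

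Genes of coffee's known receptors and enzymes gave few differences by count. None of the 32 lists held more than 3 higher or 2 lower genes at an unadjusted p under 0.05. The lists are short, so a small count can be a large share. Of all genes, 5.83% were higher and 1.9% lower at that p, and the shares of the lists lay on both sides of each. Of 9 genes of the aryl hydrocarbon receptor list, 4 lay above 0 and 5 below, with a median of -0.079. CYP1A1 measured 6.06, 5.95 and 5.73 in Control and 6.14, 5.99 and 5.94 in ICC, a difference of +0.11 ± 0.11. CYP1B1 gave -0.096 ± 0.15, and +0.082 without ICC replicate 1. The member at an unadjusted p under 0.05 was UGT1A6, a glucuronidation enzyme, which measured 7.72, 7.72 and 7.68 in Control and 7.51, 7.34 and 7.48 in ICC. It was lower on every ICC array, by -0.26 ± 0.081. Of 23 drug conjugation enzymes, 3 were higher and 2 lower at that p, both larger shares than among all genes. Among these enzymes were the sulphotransferase SULT1B1 (+0.43 ± 0.094, from 4.99 to 5.42) and the abundant glutathione transferase GSTP1 (+0.18 ± 0.076).

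Of 24 NRF2 targets, 13 lay above 0, the median was +0.0078, and 0 had an unadjusted p under 0.05. NQO1, a quinone reductase, measured 11.82, 12.30 and 12.11 in Control and 11.93, 12.19 and 12.19 in ICC, a difference of +0.032 ± 0.13. HMOX1, haem oxygenase, measured 5.88, 7.69 and 5.92 in Control and 5.54, 6.75 and 6.02 in ICC. Replicate 2 was high in both groups, and the difference of -0.40 ± 0.44 turned to +0.20 without Control replicate 2. Among 21 adenosine receptors and phosphodiesterases, 1 was higher and 0 were lower, ADORA3 at +0.22 ± 0.079, which was dim at 4.56 in Control. ADORA2B, the main adenosine receptor of colon epithelium, measured 8.81, 8.43 and 8.44 in Control and 8.41, 8.31 and 8.45 in ICC, and PDE3B gave -0.19 ± 0.099.

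PPARGC1A, a coactivator of mitochondrial biogenesis and a target of cyclic AMP signalling, measured 4.20, 4.32 and 4.21 in Control and 4.85, 4.51 and 4.65 in ICC. All ICC arrays were higher, by +0.43 ± 0.092, at a level near the lower quartile of the genes, which was 4.58 to 4.70 by array. The other PPARGC1A probe set, 219195_at, gave +0.088 with overlapping groups. ESRRA, the nuclear receptor that PPARGC1A coactivates, measured 9.07, 9.26 and 9.11 in Control and 9.59, 9.40 and 9.44 in ICC, a difference of +0.33 ± 0.088. These were the 2 of 20 genes of mitochondrial biogenesis and fatty acid oxidation that were higher at an unadjusted p under 0.05, and GLUD1 was the 1 that was lower. The 25 genes of oxidative phosphorylation had 1 higher, the succinate dehydrogenase subunit SDHD (+0.21 ± 0.079), and 0 lower, with a median of +0.015. PCK1, a gluconeogenic target of cyclic AMP signalling, was lower by 0.30 ± 0.099 at a dim level of 4.48 in Control. In glycolysis, PKM, the pyruvate kinase, was higher by 0.24 ± 0.086, and PFKFB3, which makes the activator of phosphofructokinase, was lower by 0.25 ± 0.095.

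Endoplasmic reticulum chaperones and genes of the unfolded protein response lay mostly below 0. These genes fold and quality-check secretory proteins and are induced together when unfolded protein accumulates. Of 19 measured, 14 were below 0, with a median of -0.12 against +0.028 for all genes. At an unadjusted p under 0.05, 1 was lower without the block (5.26%) and 5 with it. Of all genes, 1.9% were lower at that p without the block and 3.99% with it. The list medians were -0.18 between replicates 1, -0.065 between replicates 2 and -0.060 between replicates 3. DNAJB9, a cochaperone, measured 9.00, 9.22 and 8.69 in Control and 8.56, 8.77 and 8.64 in ICC, a difference of -0.31 ± 0.13 with an adjusted p of 0.630 by limma. EDEM1, which directs misfolded glycoproteins to degradation, lay at -0.19 ± 0.10, DNAJB11 at -0.20 ± 0.11 and the chaperone HSP90B1 at -0.16 ± 0.089. The median was -0.038 without Control replicate 3 and -0.18 without ICC replicate 3, and -0.051 without ICC replicate 1. It was -0.037 over the 15 members left when _x_at and _s_at probe sets were omitted. Of 23 genes of the translocon and signal peptide processing, 17 lay below 0 with a median of -0.037, and 0 had an unadjusted p under 0.05. SSR2, another subunit of the complex of SSR3, measured 11.55, 11.47 and 11.58 in Control and 11.27, 11.44 and 11.45 in ICC.

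Promoters of the chaperone genes are known for the endoplasmic reticulum stress response element, which the factors ATF6 and NF-Y bind. Its letters, CCAAT and CCACG with 9 bases of any kind between them, were searched on both strands in the 250 bases before the start of each gene in RefSeq (GRCh38.p14). The full element was found in 22 of 27305 promoters (0.0806%) and in 6 of the 18 list members with a promoter. The 6 had a median difference of +0.016 with 3 below 0, and the 12 without a match had a median of -0.15. The promoters of HSPA5, the main chaperone of the compartment (difference +0.047 ± 0.087), and of HSP90B1 are shown because both carry matches and yet their differences point in opposite directions. The HSPA5 stretch is chr9:125241344-125241593 on the minus strand and the HSP90B1 stretch is chr12:103930160-103930409 on the plus strand, both 5′ to 3′, with matches in capitals.
HSPA5: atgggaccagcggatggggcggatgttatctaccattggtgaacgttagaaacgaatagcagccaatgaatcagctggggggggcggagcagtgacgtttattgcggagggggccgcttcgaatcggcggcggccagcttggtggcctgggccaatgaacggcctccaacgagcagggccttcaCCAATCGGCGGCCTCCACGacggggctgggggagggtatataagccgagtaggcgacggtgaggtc
HSP90B1: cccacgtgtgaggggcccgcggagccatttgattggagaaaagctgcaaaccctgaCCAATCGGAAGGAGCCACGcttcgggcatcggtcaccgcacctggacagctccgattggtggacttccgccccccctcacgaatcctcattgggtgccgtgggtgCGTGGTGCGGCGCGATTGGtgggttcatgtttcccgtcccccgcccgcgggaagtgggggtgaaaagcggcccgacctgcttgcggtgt
HSPA5 has 1 match and HSP90B1 has 2, the second on the opposite strand. A match is a description of these letters.

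Metallothioneins hold zinc and copper in the cell, and their genes respond to these metals. They lay above 0. Of 9 genes on the list, 8 were above 0 with a median of +0.15, and the exception was the zinc exporter SLC30A1. At an unadjusted p under 0.05, 1 was higher without the block (11.1%) and 5 with it. Of all genes, 5.83% were higher at that p without the block and 8.41% with it. MT3, at about 5.3, was +0.24 ± 0.086 higher with groups apart. MT2A, the most widely expressed form, measured 11.56, 11.19 and 11.14 in Control and 11.74, 11.34 and 11.32 in ICC. Each ICC array exceeded the Control array of its number, while the groups overlapped, and the difference was +0.17 ± 0.16. MT1X measured 10.99, 10.80 and 10.70 in Control and 11.20, 10.92 and 10.88 in ICC, a difference of +0.17 ± 0.12 in the same order. The list median was +0.030 without ICC replicate 1 and +0.25 without Control replicate 1. Metallothionein genes are near-identical copies, so their probe sets can share signal.

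The metal response element, bound by the zinc-sensing factor MTF1, was searched as TGCACNC and TGCGCNC on both strands of the same windows. It was found in 24.7% of promoters and in 4 of the 4 list members with a promoter. The promoters of MT1X and MT2A are shown as the pair whose values were given array by array, with matches in capitals that do not overlap. They lie at chr16:56682220-56682469 and chr16:56608334-56608583, both on the plus strand.
MT1X: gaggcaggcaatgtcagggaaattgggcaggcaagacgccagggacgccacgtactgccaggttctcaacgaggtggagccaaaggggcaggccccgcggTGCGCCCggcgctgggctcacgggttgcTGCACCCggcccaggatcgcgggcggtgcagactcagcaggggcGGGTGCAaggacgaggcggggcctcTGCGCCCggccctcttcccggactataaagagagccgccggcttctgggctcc
MT2A: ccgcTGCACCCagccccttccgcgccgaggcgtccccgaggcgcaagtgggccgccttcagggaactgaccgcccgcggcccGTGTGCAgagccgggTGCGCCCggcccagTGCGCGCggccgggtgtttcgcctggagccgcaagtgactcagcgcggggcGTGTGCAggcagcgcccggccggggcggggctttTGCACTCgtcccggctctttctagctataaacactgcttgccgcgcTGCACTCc
MT1X has 4 matches and MT2A has 7, and the measured SLC30A1, at -0.18, has 1.

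Genes that ATF4 induces when amino acids are scarce lay mostly above 0, and 1 array decided this. Of 19 measured, 17 lay above 0 with a median of +0.091, and 0 had an unadjusted p under 0.05. CHAC1, which degrades glutathione, measured 9.05, 9.04 and 6.71 in Control and 8.86, 9.13 and 8.46 in ICC. DDIT4, an inhibitor of mTOR signalling, measured 11.82, 11.67 and 9.19 in Control and 11.39, 11.96 and 11.05 in ICC. Control replicate 3 was far below the others for both, and ICC replicate 3 was the lowest ICC array. The list medians were -0.29 between replicates 1, +0.16 between replicates 2 and +0.61 between replicates 3. Without Control replicate 3 the median was -0.23, with 3 of 19 above 0, and CHAC1 and DDIT4 turned to -0.23 and -0.28. Without Control replicate 1 it was +0.34, and without ICC replicate 2 it was +0.012. PSPH and CEBPB were higher by 0.35 and 0.21 with all arrays.

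Nuclear complexes held members on both sides of 0. Of 26 core spliceosome genes, 22 lay above 0, with a median of +0.047 that was +0.019 without ICC replicate 1. SF3A2 (+0.37 ± 0.13) and SNRPA1 (+0.32 ± 0.12) were higher at an unadjusted p under 0.05 and SNRNP40 was lower. These were 7.69% and 3.85% of the list, against 5.83% and 1.9% of all genes. Centring the arrays left 17 of 26 above 0. Of 13 NuRD genes, 9 (69.2%) lay above 0, against 60.2% of all genes, with a median of +0.043. MBD3, the methyl-CpG binding family member of the complex, measured 9.21, 9.19 and 9.23 in Control and 9.53, 9.33 and 9.55 in ICC, a difference of +0.26 ± 0.074. MTA2, given earlier, and the histone chaperone RBBP4 lay the other way. RBBP4 measured 11.02, 11.01 and 10.96 in Control and 10.72, 10.61 and 10.71 in ICC, a difference of -0.31 ± 0.071, with 4 of its 6 probe sets below 0.

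Among 20 selenoproteins, 1 was higher and 2 were lower at an unadjusted p under 0.05. SELENOS, which takes part in degrading misfolded proteins of the endoplasmic reticulum, measured 11.14, 11.15 and 11.12 in Control and 10.69, 10.99 and 10.96 in ICC. It was lower by 0.26 ± 0.093 alongside SELENOT, while SELENOO, a mitochondrial enzyme, was higher by 0.17 ± 0.074. In the cell cycle lists, POLA1, the catalytic subunit of DNA polymerase alpha, was lower by 0.25 ± 0.083. The mitotic checkpoint gene MAD2L1 was higher by 0.32 ± 0.13, and its brightest probe set ends in _s_at or _x_at, without which it was -0.14. The medians of 26 genes of DNA replication and 24 of mitosis were +0.15 and +0.20 between replicates 1, and -0.017 and -0.035 between replicates 2.

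In differentiation, 3 of 20 goblet and secretory genes were higher, among them FCGBP, a mucus protein, at +0.28 ± 0.11 and SPDEF, a goblet cell transcription factor, at +0.25 ± 0.10. SLC4A4, the bicarbonate cotransporter, was the 1 of 24 enterocyte genes (4.17%) that was lower at that p, against 1.9% of all genes. It measured 6.62, 6.66 and 6.75 in Control and 6.33, 6.31 and 6.33 in ICC, a difference of -0.36 ± 0.073. Among 18 interferon-stimulated genes, IFI6 measured 11.57, 10.75 and 11.15 in Control and 10.91, 10.47 and 10.73 in ICC. It was lower in every pair by number, by -0.45 ± 0.18, with overlapping groups and an adjusted p of 0.312 with the block.

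Of the markers of other cell types, 8 of 13 fibroblast and endothelial genes and 3 of 11 leukocyte genes had a mean level under 5. In RNA from bulk cells, fewer cells of a type and less RNA per cell cannot be told apart. Of 13 fibroblast and endothelial markers, with a median Control level of 4.44, 11 (84.6%) lay above 0 with a median of +0.15. The share above 0 was 60.2% for all genes, 62.9% for those with a mean level up to 4.63 and 70.4% for those from 4.63 to 6.48. COL1A1 (+0.27 ± 0.094) and FAP (+0.20 ± 0.084) were higher at an unadjusted p under 0.05 (15.4%, against 5.83% of all genes). The summed intensity of the 13 markers was 503 to 529 units in Control and 553 to 601 in ICC, against 58800 to 62530 and 58350 to 62650 for the epithelial markers. None was at 0, which arrays do not give, and the list median was +0.024 over the 10 members left without _x_at and _s_at probe sets. Of 11 leukocyte markers, 8 lay above 0 with a median of +0.054 and 1, CD79A, was higher at that p; 60.2% of all genes lay above 0. Their summed intensity was 8683, 10010 and 9619 units in Control and 7715, 9887 and 9661 in ICC, and LYZ, the lysozyme gene, led it at 12.78 to 13.20 on the 6 arrays. The part of other cells in any result was not tested. The plot of list medians shows where each list lay for each replicate number.

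**Figure D5:**
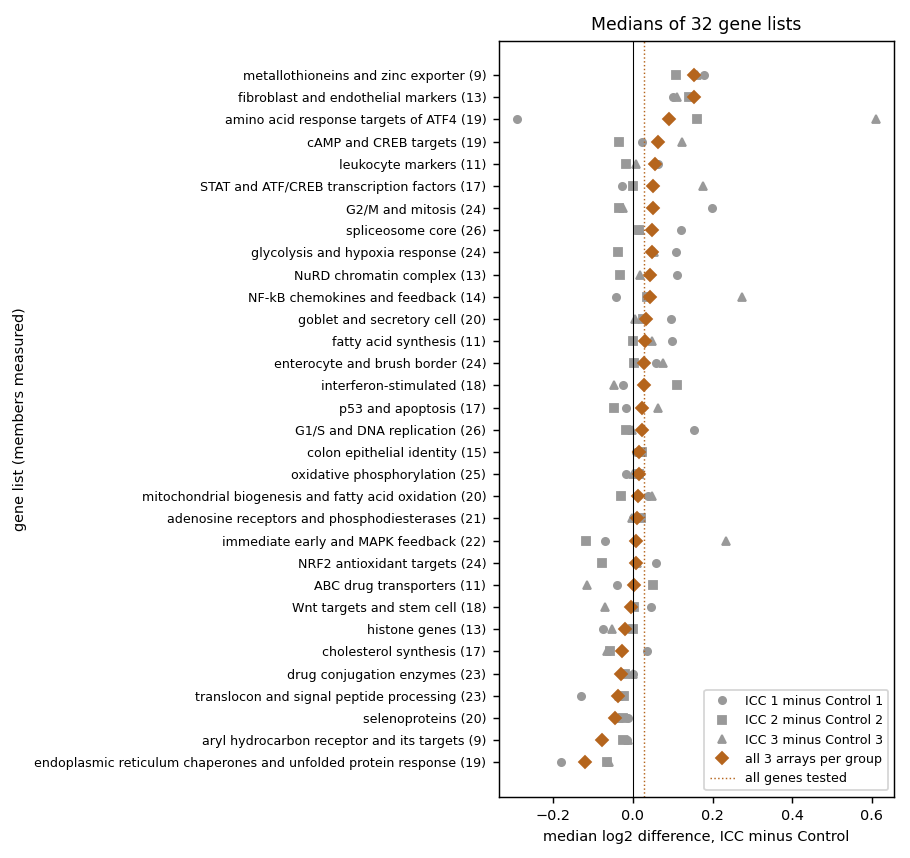
Median log2 difference of ICC minus Control (horizontal axis) for 32 gene lists (vertical axis, members measured in brackets), with brown diamonds for all 3 arrays in each group and grey symbols for each replicate number, and a dotted line at the median of all genes, +0.028. Endoplasmic reticulum chaperones lie lowest at -0.12 and metallothioneins highest at +0.15, and the amino acid response list spreads from -0.29 to +0.61.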

How the data were processed

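Gene expression was measured in HT29 cells on 3 untreated arrays and 3 instant coffee arrays, with 3 caffeic acid arrays in the same fit. The authors deposited 1 linear intensity per probe set and array, which per the submitters' processing notes came from RMA, and GeneSpring GX is named per the labels' series text. No genome build or RMA version is stated. Here log2 of each deposited intensity was taken, on the 54613 probe sets left after 62 control probe sets. Of these, 41091 have 1 gene symbol, 1801 several and 11721 none. At least 2 arrays hold exactly the same value in 54.0% of them. The number of arrays limits the precision, and, as no label says that arrays came from separate cultures, a p-value reflects array-to-array spread alone, which may be technical.

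Tests used limma 3.58.1 under R 4.3.3, on 1 model that held all 9 arrays and their 3 groups, with Benjamini-Hochberg adjustment over all 19775 genes or all probe sets and a threshold of 0.05. It was tested on simulated arrays with 200 changed genes and noise drawn separately for each array. Without the block, 63% of log2 changes of 0.5 and 94% of those of 1 were called. With the block it was 48% and 88%. Same-numbered arrays shared no deviation in the simulation, unlike in these data, so its result with the block need not carry over. An exact two-sided permutation test of 3 arrays against 3 cannot go below 0.1. The replicate numbers in the titles pair the arrays: deviations from the group means correlated at 0.347 to 0.362 for the 3 Control and ICC pairs of the same number, and the 9 same-numbered pairs of all groups lay at 0.327 to 0.518. The labels do not say what the number marks. The block added it to the model.

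Named were the 12 highest and 12 lowest differences among genes with a mean log2 of at least 6, an unadjusted p under 0.05 with and without the block and groups apart, passing over placeholder names. Also named were probe sets that passed, up to 4 members of smallest p per list, and a few genes of the study's question. HSPA5 and MT2A belong to the promoter search. The lists (633 entries, 585 measured), the members and the genes were chosen with earlier results of these data known. Promoters are RefSeq's (GRCh38.p14). Alternatives changed the scaling, the arrays, the probe set, the dim filter (a mean log2 under 5), the variance prior, array weights and the block.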

Additional observations from a re-analysis of the deposited data

How the results depend on the processing

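No gene passed an adjusted p under 0.05 by limma under any of the 23 alternatives, with or without the replicate block. The count of genes higher at an unadjusted p under 0.05 was 717 without dim genes, 575 to 1308 with 1 array left out, and 621 to 1866 with the replicate block and 1 array left out (1739 without Control replicate 2). The count of lower genes was 576 with centred arrays, 789 with the replicate block, 1117 with both, 702 with the block and only the 6 arrays, 289 to 477 with 1 array left out, and 458 to 829 with the block and 1 array left out (618 without Control replicate 3, 796 without ICC replicate 2 and 695 without ICC replicate 3). Probe sets that passed numbered 2 with the replicate block, 72 with the block and centring, 4 with the block and only the 6 arrays, 9 with the block and quantile normalisation, and 0 to 2 with the block and 1 array left out. The last 4 settings were chosen after seeing the data, and the cause was not tested. Of 1885 values of named genes under these settings, 1859 kept their direction and 26 turned. Averaging the probe sets of a gene gave STAT5B +0.16, ATF2 -0.19, CYP1B1 +0.015, HSPA5 -0.059, HNRNPH1 -0.19 and PRKAR1A -0.20. Omitting _x_at and _s_at probe sets gave RASSF3 -0.15, TRAM1 +0.047, SNRPA1 -0.070 and MAD2L1 -0.14. With 1 array left out, some differences crossed 0 and ranged from -0.23 to +0.082 for CYP1B1, from -0.096 to +0.14 for NQO1, from -0.72 to +0.20 for HMOX1, from -0.025 to +0.10 for HSPA5, from -0.23 to +0.94 for CHAC1, from -0.28 to +1.04 for DDIT4 and from -0.12 to +0.0076 for ATL3. With the block as well, STAT5B turned to +0.022 without Control replicate 2 and +0.024 without ICC replicate 1, CYP1B1 to +0.071 without Control replicate 1 and +0.069 without ICC replicate 1, NQO1 to -0.011 without Control replicate 1 and HMOX1 to +0.019 without Control replicate 2. The replicate block changed no other call. Signal near background limits the dim genes.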
